A study of Mus musculus with 6 samples.

Results

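Genes of the interferon response and of antigen presentation were examined in mouse embryonic stem cells without glycogen synthase kinase-3 (Gsk-3) and in wild-type cells. The set holds 45 genes, chosen by symbol for their role as interferon receptors and kinases, Irf and Stat factors, RNA sensors, antiviral effectors, immunoproteasome subunits or parts of the peptide-loading machinery. The choice was made with earlier results of these data known. Every probe set that the platform annotation assigns to exactly 1 of these genes was read, which gave 74 probe sets for 43 of the genes, out of 34958 single-gene probe sets on the array. Isg15 shared its probe set with a predicted gene, and Ifi44 had none assigned, so neither was read.

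Total RNA from 3 samples of the double-knockout cells (Gsk-3a-/-; Gsk-3b-/-, DKO) and from 3 samples of wild-type cells, labelled E14K, was hybridised to 6 Affymetrix arrays. Culture was feeder-free, on gelatin, with 15% serum and leukaemia inhibitory factor at 1000 units/ml for both genotypes, and no interferon treatment is recorded in the labels. The comparison asks which transcripts differ with the loss of both Gsk-3 genes. The sources used here do not say whether the DKO cells were 1 clone, how they relate to E14K or whether each replicate was its own culture. Clone and genotype therefore cannot be told apart, and the p-values describe the spread among these samples alone, which may be technical.

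Interferons bind receptors on the cell surface, whose Jak kinases phosphorylate Stat proteins. Type I interferon acts on genes with an interferon-stimulated response element (ISRE), which is bound by a complex that holds Stat2 and Irf9, and interferon gamma acts on genes with a gamma-activated site (GAS). The induced genes include RNA sensors, antiviral enzymes, and the immunoproteasome and transporters that make and carry peptides for MHC class I. Pluripotent stem cells are known for a weak response to interferon, while some of its target genes, among them Ifitm genes, are expressed in them without it.

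Of the 43 genes, 25 could be tested, and 4 of them passed an adjusted p of 0.05. The antiviral enzyme gene Oas1a was 7.12-fold higher in DKO cells. The immunoproteasome genes Psmb8 and Psmb10 and the antiviral membrane protein gene Ifitm1 were lower. Psmb8 was tested through its wild-type arrays alone, being under the filter in DKO cells, and it did not pass when values under the filter were set to it (adjusted p = 0.473). The other 21 tested genes did not pass, and most classical interferon-stimulated genes (Ifit1, Ifit2, Ifit3, Mx1, Mx2, Oas2, Rsad2, Usp18) were too dim to test in either genotype.

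The windows around the start sites of the 4 genes that passed are shown to let their interferon motifs be compared. Each runs from 250 bases before to 50 bases after the start of the RefSeq gene (GRCm38.p6), 5′ to 3′ on the strand of the gene, and capitals mark matches on either strand to GAAA, any 2 bases and GAAA (ISRE) or to TTCNNNGAA (GAS).
Oas1a (chr5:120907476-120907775, minus strand): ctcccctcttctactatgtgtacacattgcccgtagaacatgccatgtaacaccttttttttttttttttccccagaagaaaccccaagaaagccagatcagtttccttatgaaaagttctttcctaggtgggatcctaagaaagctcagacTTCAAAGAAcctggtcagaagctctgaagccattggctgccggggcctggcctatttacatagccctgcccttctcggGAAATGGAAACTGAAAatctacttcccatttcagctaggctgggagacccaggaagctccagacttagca
Psmb8 (chr17:34197945-34198244, plus strand): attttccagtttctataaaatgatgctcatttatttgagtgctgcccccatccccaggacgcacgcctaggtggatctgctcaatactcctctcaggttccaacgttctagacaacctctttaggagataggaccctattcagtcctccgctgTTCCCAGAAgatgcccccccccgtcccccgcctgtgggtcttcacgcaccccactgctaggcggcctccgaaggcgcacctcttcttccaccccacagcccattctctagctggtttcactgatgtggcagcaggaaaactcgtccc
Psmb10 (chr8:105938343-105938642, minus strand): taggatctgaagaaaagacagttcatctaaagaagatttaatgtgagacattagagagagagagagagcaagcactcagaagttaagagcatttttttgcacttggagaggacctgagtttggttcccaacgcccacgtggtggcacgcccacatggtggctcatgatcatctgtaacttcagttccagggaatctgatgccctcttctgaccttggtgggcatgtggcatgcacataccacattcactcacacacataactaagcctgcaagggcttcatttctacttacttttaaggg
Ifitm1 (chr7:140967826-140968125, plus strand): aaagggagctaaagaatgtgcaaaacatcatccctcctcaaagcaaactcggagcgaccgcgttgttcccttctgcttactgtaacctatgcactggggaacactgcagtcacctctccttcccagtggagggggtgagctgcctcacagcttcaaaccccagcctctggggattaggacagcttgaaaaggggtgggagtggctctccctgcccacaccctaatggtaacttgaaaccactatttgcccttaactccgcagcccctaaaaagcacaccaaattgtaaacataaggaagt

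The Oas1a window held 2 overlapping ISRE matches, whose first bases lay at -20 and -14 from the start, and a GAS match at -98. The Psmb8 window held a GAS match at -97 and no ISRE match. The windows of Psmb10 and Ifitm1 held neither, which says only that these letters are not in these windows. Over all 32851 promoter windows of the table, 3.44% held an ISRE match and 8.3% a GAS match. Of the 38 genes of the set with a window, 14 had an ISRE match in at least 1 window and 12 a GAS match. In Bst2 and Ifitm3 ISRE and GAS matches overlapped. The motif CTTTGAT, read by Tcf/Lef factors of the Wnt pathway, which Gsk-3 restrains, had 0 matches in these 38 genes and was in 3.73% of all windows. At that share few matches would be looked for among 38 genes, so the 0 does not show a depletion. A match is a description of sequence and was not tested for factor binding.

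Dim probe sets were left out, and those tested reached a log2 intensity of 4 (an intensity of 16) on 3 or more of the 6 arrays. Differences are DKO minus wild-type on the log2 scale, with the moderated standard error (SE), and adjusted p-values are from limma with Benjamini-Hochberg adjustment over all 20841 tested probe sets. Each gene is represented by its brightest tested probe set. Several genes also had probe sets under the filter on all arrays, which were not tested, among them Irf5, Ifi35, Tapbp, Jak2, Ifnar1 and Tyk2. Over all 10496 genes so represented, 4.13% passed (1.64% higher and 2.5% lower in DKO), against 4 of 25 genes of the set (16%; 1 higher, 3 lower, Psmb8 among these). The DKO and wild-type arrays did not overlap in 11 of the 25 genes (44%; 4 higher, 7 lower), against 18.9% of all genes (8.49% higher, 10.4% lower). The median log2 difference was -0.10 over the 25 genes and -0.0025 over all genes. The median absolute difference was 0.39 in the set and 0.25 over all genes. With the replicate number as a block, 8 of the 25 passed (3 higher, 5 lower; 32%), against 10.7% of all genes (5.07% higher, 5.63% lower). The genes added were Ifngr2, Tyk2, Bst2 and Ifitm3. With replicate 3 set apart from the others as a block, because its spike-in controls were brighter, 1 gene was higher and 5 were lower, against 6.55% of all genes. In the ordinary linear model without moderation 0 of the 25 passed, where only 22 of all 10496 genes did. In limma 10 of the 25 (40%) had an unadjusted p under 0.05, against 14.7% of all genes. The set was chosen with earlier results of these data known, so its shares are descriptions and do not test for an excess.

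**Figure D1:**
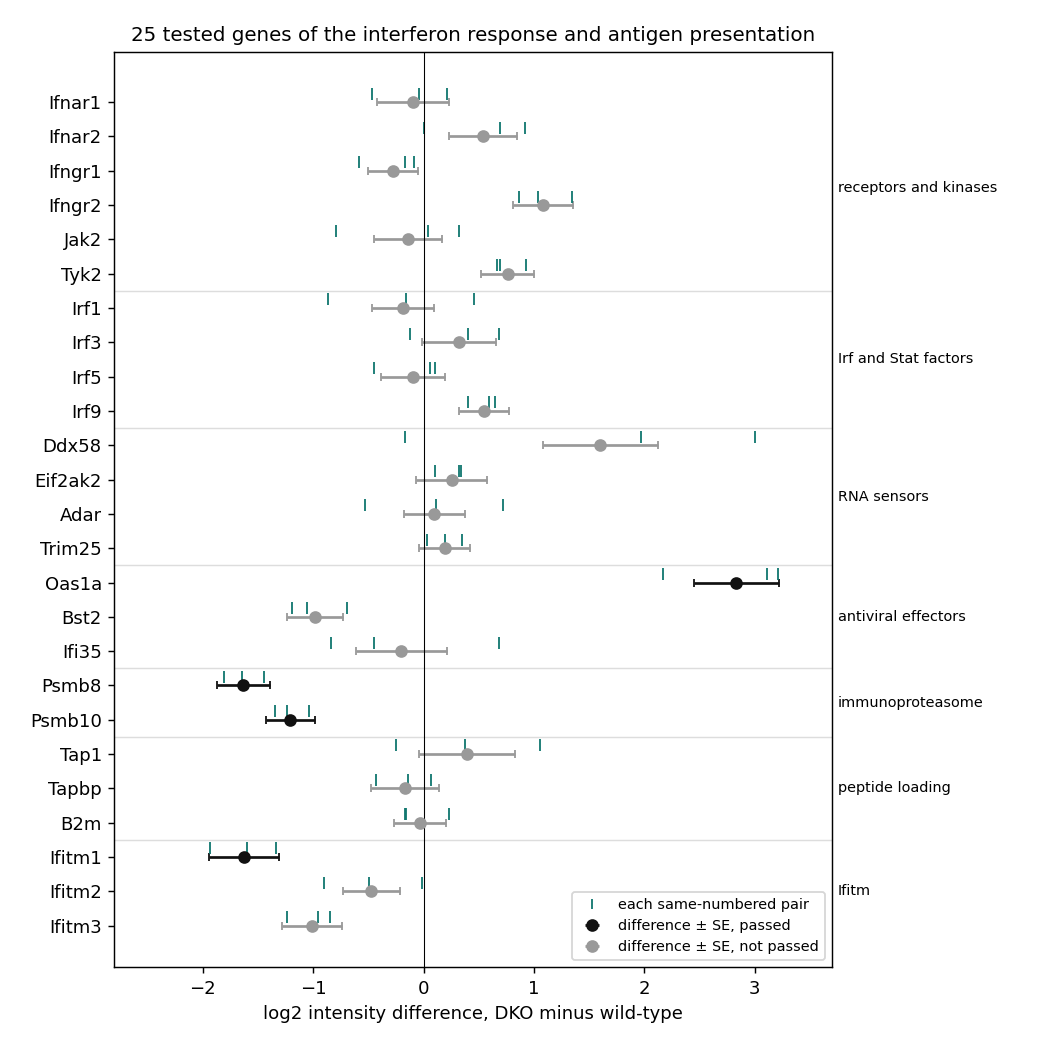
Log2 intensity difference (DKO minus wild-type, x axis) of the 25 tested genes, grouped by role. Points are fitted differences with bars of 1 SE (black, passed; grey, not passed), and ticks are the 3 same-numbered pairs. Oas1a lies at 2.83 and Psmb8, Psmb10 and Ifitm1 lie between -1.63 and -1.21.

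Some facts of the whole array set bear on these values. The arrays had median intensities of 10 to 11. Spike-in controls were bright on both arrays of replicate 3 (mean log2 intensity 9.84 in DKO and 10.2 in wild-type) and dim on the other 4 (1.69 to 1.83), and the labels name no batch. Both genotypes are in replicate 3, so values over replicates 1 and 2 and in replicate 3 are given beside the genes that passed. Gsk3a differed by -1.38 (adjusted p = 0.0942; 0.00646 with the replicate block), with every DKO array below every wild-type array, and the 5 tested probe sets of Gsk3b differed by -0.71 to -0.02, none passing, with adjusted p-values of at least 0.508. Whether these probe sets lie in the deleted parts is not known here. Of 8 embryonic stem cell markers (among them Pou5f1, Nanog and Sox2) 8 were tested and limma passed 0 (0 at an unadjusted p under 0.05), with differences between -0.41 and 0.46. Of 8 blood and macrophage markers 7, including Ptprc, Csf1r and Adgre1, were under the filter on all arrays. The other, Laptm5, a lysosomal membrane protein gene, was higher in DKO (difference 1.14, adjusted p = 0.0437). The summed log2 level of the list ran from 11.67 to 12.06 in DKO and from 10.42 to 10.88 in wild-type arrays. With the other 7 under the filter, this sum is almost wholly Laptm5 and repeats its difference. Of 8 fibroblast markers Col3a1, Postn and Lum were under the filter on all arrays, limma passed 0 of 4 tested (1 at an unadjusted p under 0.05, and Col1a1 as lower with the replicate block), and the summed level was 10.21 to 10.99 in DKO and 9.52 to 10.50 in wild-type. Of 7 endoderm markers Afp was under the filter, limma passed 0 of 5 tested (2 at an unadjusted p under 0.05, 0 with the replicate block; median difference 1.05), and the summed level was 10.65 to 11.38 in DKO and 9.06 to 11.3 in wild-type. Of 5 endothelial markers Cdh5 and Vwf were under the filter, limma passed 0 of 2 tested (1 at an unadjusted p under 0.05, and Tek as lower with the replicate block), and the summed level was 5.98 to 6.55 in DKO and 6.52 to 7.03 in wild-type. Of 6 trophoblast markers Elf5 and Hand1 were under the filter, limma passed 0 of 4 tested (2 at an unadjusted p under 0.05, and Eomes as higher with the replicate block), and the summed level was 11.56 to 12.55 in DKO and 12.05 to 12.91 in wild-type. Since 4.13% of all genes passed in limma, few passes would be looked for in marker lists this short. The part of these cell types in the results was not tested.

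Oas1a, a 2′-5′-oligoadenylate synthetase that is activated by double-stranded RNA, was the only 1 of the 25 tested genes that passed as higher in the fit without a block. Ifngr2 and Tyk2 also did with the replicate block. Its probe set read intensities of 182, 176 and 234 in DKO, against 21, 19 and 52 in wild-type cells. Every DKO array was far above the brightest wild-type array, that of replicate 3. The log2 intensity was 7.61 ± 0.22 in DKO and 4.78 ± 0.80 in wild-type (SD, n = 3 each), a difference of 2.83 (SE 0.39, adjusted p = 0.00463). The difference was 3.16 for replicates 1 and 2 together and 2.17 in replicate 3. Without DKO replicate 1 the adjusted p was 0.053, and it passed in the other 5 fits that leave out an array. With no filter on dim probe sets it did not pass (adjusted p = 0.0942). Probe sequences were not used here, so signal from the closely related Oas1 copies of the same cluster on chromosome 5 was not examined.

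The other Oas genes gave no such signal. Oas2, a second synthetase, read 8, 11 and 11 in DKO and 9, 8 and 15 in wild-type cells. Oasl1, which in mouse restrains the translation of Irf7, read 5, 4 and 5 in DKO and 4, 4 and 4 in wild-type. Oasl2, an Oas-like gene, read 5, 5 and 4 in DKO against 15, 10 and 11 in wild-type, so its arrays did not overlap and lay in the opposite order to those of Oas1a. All arrays of these 3 genes were under the filter, and none was tested. For Oasl2 the fit with no filter gave a difference of -1.35 and an adjusted p of 0.0758.

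Psmb8 and Psmb10 encode catalytic subunits that replace those of the constitutive proteasome when the immunoproteasome is assembled. Psmb10 read 232, 193 and 226 in DKO, against 477, 490 and 532 in wild-type cells. The groups were well apart, each with little spread. The log2 intensity was 7.76 ± 0.14 in DKO and 8.96 ± 0.08 in wild-type (SD, n = 3 each), a difference of -1.21 (SE 0.22, adjusted p = 0.0211), or 2.31-fold lower. It was -1.19 for replicates 1 and 2 together and -1.24 in replicate 3. Of the 6 fits that leave out an array, only that without DKO replicate 3 passed (adjusted p = 0.0494), and the others ran up to 0.0947 (without wild-type replicate 2).

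Psmb8 read 8, 7 and 6 in DKO, against 25, 19 and 21 in wild-type cells. It was tested only through its wild-type arrays, since all DKO arrays were under the filter. The fitted difference was -1.63 (SE 0.24, adjusted p = 0.00705), and it passed in all 6 fits that leave out an array (adjusted p at most 0.0372). Those fits kept the probe sets chosen on all 6 arrays, so Psmb8 stayed in them through its wild-type values. With a wild-type array left out it would not have met the filter, so these passes are no separate support. The fitted difference is also split by replicate. It was -1.54 for replicates 1 and 2 together and -1.81 in replicate 3. With the DKO arrays set to the filter the level was at least 1.35-fold lower, and that fit did not pass (difference -0.43, adjusted p = 0.473). With 16 added to every intensity the difference was -0.71 (adjusted p = 0.0959). The size of the fall in Psmb8 therefore has only this limit. Its other probe set read 2 to 3 on every array.

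The third immunoproteasome subunit, Psmb9, read 14, 13 and 51 in DKO and 12, 13 and 18 in wild-type cells, and was not tested. A single array, DKO replicate 3, stood above the rest. The constitutive counterparts of these subunits, Psmb5, Psmb6 and Psmb7, differed by 0.24, 0.03 and -0.20. Of 8 genes of the constitutive proteasome limma passed 0 (0 at an unadjusted p under 0.05, 0 with the replicate block), with differences between -0.32 and 0.24. All genes gave 4.13%, 14.7% and 10.7%, so few passes would be looked for among 8.

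Psmb9, Tap1, Psmb8 and Tap2 follow each other in this order among the protein-coding genes of chromosome 17, in the MHC region. Tap1 and Tap2 form the transporter that carries peptides into the endoplasmic reticulum. Tap1 read 26, 16 and 58 in DKO and 20, 19 and 28 in wild-type cells, and the groups overlapped (difference 0.39, SE 0.44, adjusted p = 0.828). The array with the highest Tap1 value was DKO replicate 3, as for its neighbour Psmb9, while Psmb8 was at its lowest on that array. Among the wild-type arrays, too, replicate 3 was the highest for Tap1 (28) and for Psmb9 (18). Without DKO replicate 3 the Tap1 difference was -0.11. Tap2 read 6, 6 and 7 in DKO and 7, 7 and 6 in wild-type cells, under the filter.

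**Figure D2:**
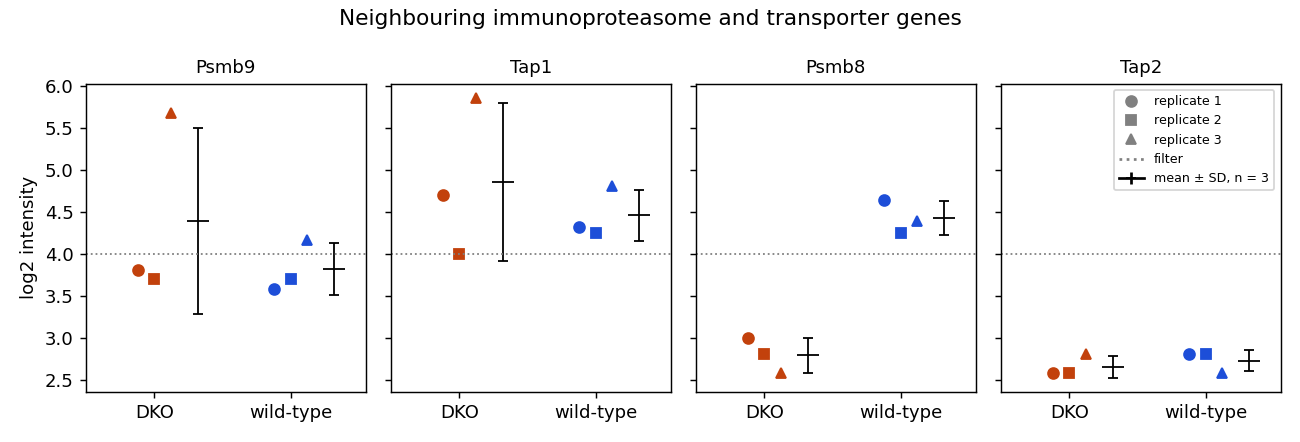
Log2 intensity (y axis) of 4 neighbouring genes on chromosome 17 by genotype, with 1 symbol per replicate, the mean ± SD (n = 3) and the filter at 4 as a dotted line. Where a gene had several probe sets, the brightest is drawn. Psmb9 and Tap1 are highest on replicate 3 in each genotype, most so in DKO, and Psmb8 is under the filter on all 3 DKO arrays.

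The remaining genes of peptide loading did not pass. B2m, the light chain of MHC class I, read 3112, 2599 and 2988 in DKO and 3479, 2912 and 2539 in wild-type cells (difference -0.03, SE 0.24, adjusted p = 0.985). Tapbp (tapasin), which bridges class I molecules to the transporter, read 1164, 755 and 631 in DKO and 1112, 1019 and 695 in wild-type (difference -0.17, adjusted p = 0.909). The other Tapbp probe set read 5 to 7 on every array. Both genes overlapped between the genotypes. Limma passed 0 of the 3 tested genes of this role, also at an unadjusted p under 0.05 (0) and with the replicate block (0). With 4.13%, 14.7% and 10.7% of all genes passing in these ways, few passes would be looked for among 3. Nlrc5, a transactivator of class I genes, read 6, 7 and 9 in DKO against 12, 15 and 17 in wild-type cells. Its arrays did not overlap, but only 1 of them reached the filter, so it was not tested (fitted difference -1.01, adjusted p = 0.178 with no filter).

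Ifitm genes encode small membrane proteins that hinder viral entry, and Ifitm2, Ifitm1 and Ifitm3 follow each other in this order on chromosome 7. All 3 read lower on every DKO array than on any wild-type array, as did 10.4% of all genes. Of the 3, 1 passed, where 2.5% of all genes passed as lower. Ifitm1 read 849, 634 and 442 in DKO, against 2575, 1605 and 1688 in wild-type cells. The log2 intensity was 9.28 ± 0.47 in DKO and 10.90 ± 0.37 in wild-type (SD, n = 3 each), a difference of -1.62 (SE 0.32, adjusted p = 0.0261), or 3.08-fold lower. It was -1.47 for replicates 1 and 2 together and -1.93 in replicate 3. Of the 6 fits that leave out an array, only that without wild-type replicate 3 passed (adjusted p = 0.0408), and the others ran up to 0.0971 (without DKO replicate 2). With no filter on dim probe sets it did not pass (adjusted p = 0.16).

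Ifitm3 read 1005, 1187 and 1594 in DKO, against 2368, 2132 and 3093 in wild-type cells. Its difference of -1.01 (SE 0.27) did not pass (adjusted p = 0.101), and passed with the replicate block (adjusted p = 0.0137), with replicate 3 set apart as a block (adjusted p = 0.0247) and with a mean-variance trend in eBayes (adjusted p = 0.044). Ifitm2 read 1696, 2576 and 2438 in DKO, against 3177, 2598 and 3440 in wild-type cells, and the nearest arrays were almost level (difference -0.47, adjusted p = 0.533; 0.277 with the replicate block). Probe sequences were not used, so cross-hybridisation among these related genes was not examined.

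Bst2 (tetherin), which holds budding virions on the cell surface, read 35, 40 and 34 in DKO, against 80, 83 and 55 in wild-type cells. The arrays did not overlap. The difference of -0.98 (SE 0.25) did not pass (adjusted p = 0.0863), and passed with the replicate block (adjusted p = 0.018) and with replicate 3 set apart as a block (adjusted p = 0.0336). Ifi35, whose protein binds Nmi, overlapped between the genotypes (difference -0.20, adjusted p = 0.923). Its tested probe set read 115 to 347, while its other probe sets read 5 to 12 and were not tested. Oas1a, Bst2 and Ifi35 were the 3 tested genes among 13 antiviral effectors.

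**Figure D3:**
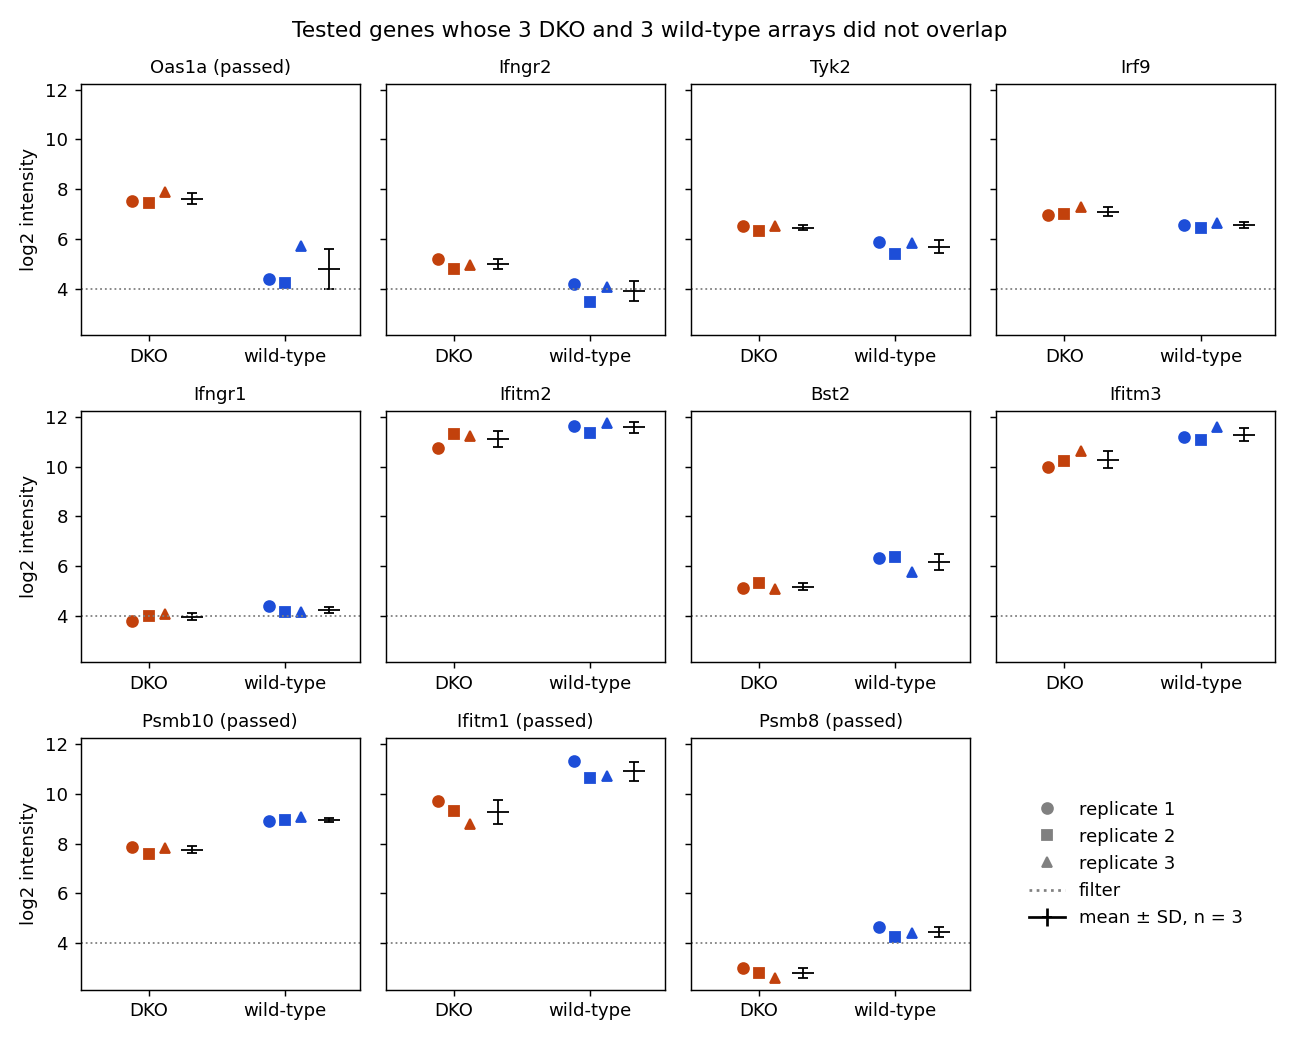
Log2 intensity (y axis) of the 11 tested genes whose DKO and wild-type arrays did not overlap, ordered by their difference, with 1 symbol per replicate, the mean ± SD (n = 3) and the filter at 4 as a dotted line. Of these, 4 are higher and 7 lower in DKO, and the 4 that passed are marked.

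The receptor chains and kinases were all measured, and limma passed 0 of 6 (2 at an unadjusted p under 0.05, 2 with the replicate block). Over all genes these shares were 4.13%, 14.7% and 10.7%, so few passes would be looked for among 6. Ifngr2, the chain of the interferon gamma receptor that recruits Jak2, read 37, 28 and 31 in DKO, against 18, 11 and 17 in wild-type cells. Every DKO array was above every wild-type array. The difference was 1.08 (SE 0.27, adjusted p = 0.0787; 0.0105 with the replicate block). Its partner Ifngr1, which binds the ligand, read 14, 16 and 17 in DKO and 21, 18 and 18 in wild-type cells. These arrays did not overlap either, in the opposite direction, at intensities near the filter (difference -0.28, adjusted p = 0.733).

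The type I receptor chains overlapped between the genotypes. Ifnar1 read 114, 81 and 112 in DKO and 117, 70 and 155 in wild-type cells (difference -0.10, adjusted p = 0.958). Ifnar2 read 57, 55 and 47 in DKO and 57, 29 and 29 in wild-type (difference 0.54, adjusted p = 0.557). Tyk2, the kinase bound to Ifnar1, read 92, 80 and 92 in DKO, against 58, 42 and 57 in wild-type cells. Its arrays did not overlap (difference 0.76, SE 0.24, adjusted p = 0.169; 0.0456 with the replicate block). Jak2, which serves the interferon gamma receptor among others, read 247, 301 and 249 in DKO and 429, 292 and 199 in wild-type (difference -0.14, adjusted p = 0.926).

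Among 8 transcription regulators 4 were tested, and limma passed 0 (1 at an unadjusted p under 0.05, 0 with the replicate block). The shares over all genes, 4.13%, 14.7% and 10.7%, would also give few passes among 4. Irf9, the DNA-binding partner of Stat2, read 126, 130 and 158 in DKO, against 95, 86 and 101 in wild-type cells. All DKO arrays were above all wild-type arrays, by a small step (difference 0.55, SE 0.23, adjusted p = 0.334). Irf1, induced by interferon gamma, read 77, 96 and 66 in DKO and 86, 70 and 120 in wild-type cells (difference -0.19, adjusted p = 0.884). Irf5, a factor downstream of Toll-like receptors, read 986, 981 and 1514 in DKO and 916, 1342 and 1452 in wild-type (difference -0.10, adjusted p = 0.953). Its other probe set read 8 to 10 on every array, so the probe sets differ on the level of Irf5. Irf3, which is activated by the RNA sensors, had 2 tested probe sets with differences of 0.24 and 0.32 (adjusted p of at least 0.813). Irf2, a repressor that competes with Irf1, and Irf7, which amplifies type I interferon, were not tested. Irf2 read 8, 6 and 7 in DKO and 16, 9 and 12 in wild-type cells. Irf7 read 4 or 5 on every array. Stat2 was under the filter throughout, at 12, 12 and 13 in DKO and 9, 9 and 8 in wild-type on its brighter probe set, whose arrays did not overlap.

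The RNA sensors and RNA-binding regulators gave 4 tested genes of 6, and limma passed 0 (1 at an unadjusted p under 0.05, 0 with the replicate block). Few would be looked for among 4 at the shares over all genes (4.13%, 14.7% and 10.7%). Ddx58 (RIG-I), which detects viral RNA ends, read 138, 344 and 379 in DKO and 155, 43 and 97 in wild-type cells. The groups overlapped through replicate 1, where DKO was just below wild-type (difference 1.60, SE 0.52, adjusted p = 0.188; 0.0655 with the replicate block). Its second tested probe set read 91, 58 and 97 in DKO and 62, 20 and 33 in wild-type cells, with DKO above wild-type in each of the 3 same-numbered pairs. That probe set differed by 1.22 (adjusted p = 0.209) and passed with the replicate block (adjusted p = 0.0145). The third, at 3 to 5 on all arrays, was not tested.

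Eif2ak2 (PKR), a kinase that stops translation on binding double-stranded RNA, had 3 tested probe sets with differences of -0.21 to 0.25. Adar, which edits adenosine to inosine in double-stranded RNA, had 3 with differences of -0.17 to 0.17. Trim25, a ubiquitin ligase that acts on RIG-I, had 3 with differences of 0.19 to 0.69, and on the last of these, at 120, 119 and 196 in DKO against 98, 79 and 86 in wild-type cells, the arrays did not overlap (adjusted p = 0.305). Ifih1 (MDA5), a sensor of long double-stranded RNA, read 3 or 4 on every array. Dhx58 (LGP2), which modulates both sensors, had 3 probe sets, of which 1 read 8, 8 and 20 in DKO and 8, 6 and 11 in wild-type cells.

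For 18 genes no probe set could be tested, and 19 of their 23 probe sets were under the filter on all arrays. Ifit1, Ifit2 and Ifit3, which bind foreign RNA or the complexes that sense it, read 4 to 9 on all arrays. Mx1 and Mx2, GTPases that act on viral nucleocapsids, read 3 to 5. Usp18, the protease that removes Isg15, read 6, 4 and 7 in DKO against 11, 8 and 9 in wild-type cells. Rsad2 (viperin), an antiviral radical SAM enzyme, had 3 probe sets, and on 1 of them the arrays read 3, 4 and 3 in DKO against 9, 7 and 6 in wild-type (difference -1.13; adjusted p = 0.132 with no filter). In all, 3 of the 23 probe sets, those of Oasl2, Nlrc5 and this one of Rsad2, differed by more than 1 log2 unit, each lower in DKO, at intensities where whole-number rounding is coarse. An intensity under the filter does not show that a transcript was absent, and fewer expressing cells cannot be told apart from less RNA per cell.

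**Figure D4:**
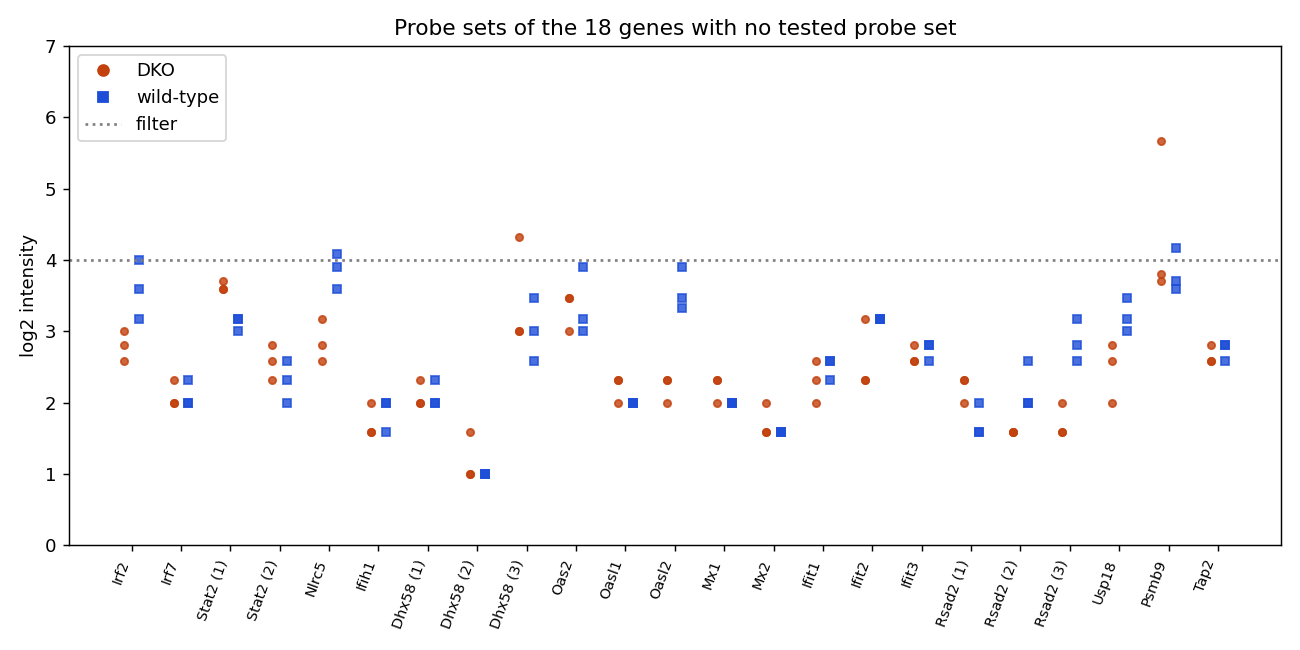
Log2 intensity (y axis) of the 23 probe sets of the 18 genes with no tested probe set, with 3 DKO arrays (circles) left of 3 wild-type arrays (squares) and the filter at 4 as a dotted line. Genes with several probe sets are numbered, and identical values lie on each other. The Ifit, Mx and Irf7 probe sets lie at log2 values of 1.58 to 3.17 in both genotypes.

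Other genes of the same pathways, 69 by list and none of them in the set, gave 36 tested genes, of which 1 rose, 1 fell and 34 did not pass, where 4.13% of all genes passed. With the replicate block 3 were higher and 3 lower, where 10.7% of all genes passed. Their median difference was 0.015. Sting1, the adaptor of cytosolic DNA sensing, read 24, 27 and 28 in DKO, against 8, 6 and 6 in wild-type cells, under the filter, and was at least 1.64-fold higher (fitted difference 1.99, adjusted p = 0.00234). With values under the filter set to it the difference was 0.72 and did not pass (adjusted p = 0.138). Erap1, which trims peptides in the endoplasmic reticulum, read 8, 12 and 9 in DKO, under the filter, against 39, 30 and 28 in wild-type cells. It was at least 2.0-fold lower (fitted difference -1.75, adjusted p = 0.00753), and the call was lost when DKO replicate 1 was left out (adjusted p = 0.0505) or values under the filter were set to it (adjusted p = 0.0595). The genes added by the replicate block, named after their values were seen, were Cgas and Cd74, higher in DKO, and Tlr3 and Pias1, lower. Ifnb1 and Ifng, the genes of interferon beta and gamma, were under the filter on all arrays. Of 4 tested guanylate-binding protein genes, a family induced by interferon, 4 passed as lower in DKO, where 2.5% of all genes did. Without moderation 0 of them passed, where only 22 of all genes did. The summed log2 level of the 6 genes with a probe set was 5.04 to 5.46 in DKO and 8.36 to 9.73 in wild-type arrays. The DKO sum is too low for all 4 tested genes to reach the filter on any DKO array. These tests therefore rest at least in part, and perhaps largely, on the wild-type arrays. For these genes a fit with values under the filter set to it is not given, so their count is no separate support.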

How the data were processed

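Total RNA was labelled after amplification from 25 ng and measured on 6 arrays, 3 DKO and 3 wild-type, grouped by sample title. The deposited values are whole-number intensities per probe set, taken as linear because they run from 1 to 12861. Per the submitters' processing notes, GCRMA 2.14.1, limma 2.16.5, R 2.8.0 and GCOS were used, in roles not given there. No genome build is named. Intensities were converted to log2 with no pseudocount from the authors' deposited table. The number of arrays limits the precision.

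Gene names come from the platform annotation, updated by gene identifier to RefSeq (GRCm38.p6), and 34754 of 34958 single-gene probe sets matched. The genotypes were compared in R 4.3.3 with limma 3.58.1 (lmFit, eBayes, two-sided, all 6 arrays, no covariate), which was tested on simulated data first. Array controls (64 probe sets) were left out. A group with all 3 arrays under the filter has only a limit, and the fold is then written "at least", with each dim array at no less than a log2 value of 4. Promoter windows and motifs were read with Python 3.11.15 and figures drawn with matplotlib 3.10.9.

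The members, gene lists and naming rule were chosen with earlier results of these data known. By that rule every member is named, with each array's value for members that passed, did not overlap or led their role, and related genes are named if they passed. Values of further members are given as well.

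After subtraction of genotype means, arrays of the same number correlated at 0.427, 0.354 and 0.595, so the replicate numbers were taken to pair the samples, though their meaning is not in the labels. Pairs of unlike number ran from -0.488 to 0.113. Subtraction of the means pushes these down where same-numbered pairs are positive, so they are no separate support for the pairing. The replicate block was an alternative to the unblocked model. Other alternatives changed the filter, pseudocount, scaling, moderation, replicate 3 as a block, arrays used and the probe set that stands for a gene.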

Additional observations from a re-analysis of the deposited data

How the results depend on the processing

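Quantile normalization and the mean-variance trend left Oas1a, Psmb8, Psmb10 and Ifitm1 past the threshold, and their direction held under every alternative run. The counts of the 25 genes were 1 higher and 3 lower. They became 0 and 2 with no filter (247 of all genes). With the stricter filter they were 1 and 2 (353 of all genes), but only 21 of the 25 genes were tested there. Psmb8 was not among those 21, so it was left out of that fit and did not fail in it. The counts were also 1 and 2 with values under log2 4 set to 4 (328 of all genes) or with 16 added (348). Without moderation they were 0 and 0 (22 of all genes). They were 3 and 5 with the replicate block (1123 of all genes) and 1 and 5 with replicate 3 set apart as a block (687). The mean-variance trend gave 1 and 4 (443 of all genes), with Ifitm3 added (adjusted p = 0.044). The mean over probe sets gave 2 and 4 (546 of all genes). Replicates 1 and 2 alone gave 1 and 1 (Oas1a and Psmb8). The count over all genes, 434, became 184 to 374 when an array was left out and 296 over replicates 1 and 2 alone. Leaving out an array gave 0 to 1 higher and 1 to 2 lower. Counted by probe set the values were the same, except 4 higher with the replicate block and 0 to 2 higher when an array was left out. For the related genes the counts higher and lower, 1 and 1, became 3 and 3 with the replicate block, 2 and 2 with replicate 3 set apart as a block, 2 and 1 with quantile normalization or over replicates 1 and 2 alone, 1 and 2 with the mean over probe sets, 0 and 0 without moderation, with the stricter filter or with values under log2 4 set to 4, and 1 to 2 higher and 0 to 1 lower when an array was left out. Sting1 and Erap1 were too dim to be tested with the stricter filter. The cause of these moves was not tested. Among the genes of the set and the related genes, the replicate block changed no call beyond those given in the report.

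Of 568 alternative values of single probe sets, 23 changed sign, all of them in probe sets that did not pass. Over replicates 1 and 2 alone these were Ifnar1 (0.09), Irf1 (0.15), Eif2ak2 (-0.07) and the second probe set of B2m (-0.08). When an array was left out, differences ran from -0.41 to 0.16 in Ifnar1, -0.42 to 0.13 in Jak2, -0.37 to 0.02 in Irf1, -0.30 to 0.03 in Irf5, -0.66 to 0.14 in Ifi35, -0.11 to 0.82 in Tap1, -0.42 to 0.02 in Tapbp, -0.14 to 0.09 in B2m, -0.04 to 0.18 in Eif2ak2, and in the 3 Adar probe sets from -0.15 to 0.50, -0.06 to 0.30 and -0.31 to 0.03.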
